A study of Homo sapiens with 4 samples.

Results

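The 10 genes described here lie in bands p12 and p11 of human chromosome 8 and were taken by name: ZNF703, EIF4EBP1, NSD3, LSM1, BAG4, ERLIN2, ASH2L, DDHD2, IKBKB and SMIM19. All 10 have a row among the 33538 rows that cover all genes, and 4 of them (ZNF703, EIF4EBP1, NSD3 and IKBKB) also have a row among the 1253 rows of a targeted cancer gene panel. The cells are MDA MB 134VI (MM134), an established line of invasive lobular breast carcinoma labelled as wild type. They were deprived of hormone and then given 100 nM estradiol or vehicle (0.01% ethanol) for 24 h. Each treatment has 1 mRNA library, so no difference between treatments could be tested and no p-value is given.

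Bands 8p12 and 8p11 are among the regions of recurrent DNA amplification in estrogen receptor-positive breast cancer, and MDA MB 134VI has been described as a line with such an amplification. An amplified stretch carries many genes side by side, and which of them contributes to the tumour has long been debated. ZNF703, a zinc finger protein that works as a transcriptional cofactor with TLE corepressors and histone deacetylases, is a leading candidate in luminal tumours. EIF4EBP1 encodes 4E-BP1, the repressor that holds the cap-binding factor eIF4E until mTORC1 phosphorylates it. NSD3 is a histone lysine methyltransferase, and ASH2L is a core subunit of the MLL and SET1 histone methyltransferase complexes. LSM1 belongs to the cytoplasmic LSM ring that leads deadenylated mRNA to decapping. BAG4 is a cochaperone of HSP70, ERLIN2 sits in the membrane of the endoplasmic reticulum and takes part in degradation of IP3 receptors, DDHD2 is a lipase, IKBKB encodes the kinase IKK-beta of the NF-kB pathway, and SMIM19 encodes a small membrane protein. DNA copy number was not analysed here, so RNA per gene copy cannot be told apart from the number of copies.

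The estradiol library held 3367 cells and the vehicle library 4940 cells. Panel UMIs, which count captured transcripts after removal of amplification copies, summed to 10352943 with estradiol and 14080930 with vehicle, and all-gene UMIs to 5937422 and 6918198. The median cell had 2676 panel UMIs with estradiol and 2426.5 with vehicle. The authors' phase calls put 34.5% of estradiol cells and 50.5% of vehicle cells in G1, 29.0% and 15.6% in S, and 36.4% and 33.9% in G2M. All 6 luminal markers (ESR1, KRT8, KRT18, KRT19, GATA3 and EPCAM) were present, at a sum of 6697 all-gene CPM with estradiol and 5380 with vehicle. The 3 with a panel row (ESR1, GATA3 and EPCAM) went the other way in sum, at 16662 panel CPM with estradiol and 18666 with vehicle. Of 6 basal markers, KRT5, KRT14, KRT17, ACTA2 and TP63 were at 0 in the all-gene rows of both libraries and OXTR had 36 UMIs with estradiol and 35 with vehicle, while TP63 had 13 and 25 UMIs in the panel rows. The 6 immune and endothelial markers had 1 all-gene UMI in each library, and PTPRC had 0 panel UMIs with estradiol and 3 with vehicle. Only 4 cell barcodes occurred in both libraries, 0.119% of the estradiol cells and 0.0810% of the vehicle cells.

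Of the 10 genes, ZNF703 had the highest ratio of estradiol to vehicle and EIF4EBP1 the next, and the genes between them and NSD3 had ratios near 1. Levels are given as CPM, the UMIs of a gene summed over the cells of a library per 1000000 UMIs of the same block of rows, and ratios as log2 of estradiol over vehicle. Intervals are exact 95% intervals of counting error only (Poisson for a level, Clopper-Pearson for a ratio) and take each UMI as independent. In the panel rows, 1 of 4 genes (ZNF703) was at least 1.5-fold higher with estradiol, where 3.3% of the 940 panel rows with at least 50 UMIs were. In the all-gene rows, 2 of 10 genes (ZNF703 and EIF4EBP1) were at least 1.5-fold higher, where 3.82% of 10977 rows were. None of the 10 was at least 1.5-fold lower in either block, where 11.8% of panel rows and 6.67% of all-gene rows were. All 10 passed the minimum of 50 UMIs over both libraries. The genes were chosen by name and band with their ratios of estradiol to vehicle in these libraries known, so the counts describe the choice. The median log2 ratio of the genes was 0.19 over the panel rows, beside -0.11 for the whole panel, and -0.03 over the all-gene rows, beside -0.03 for that whole block.

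**Figure D1:**
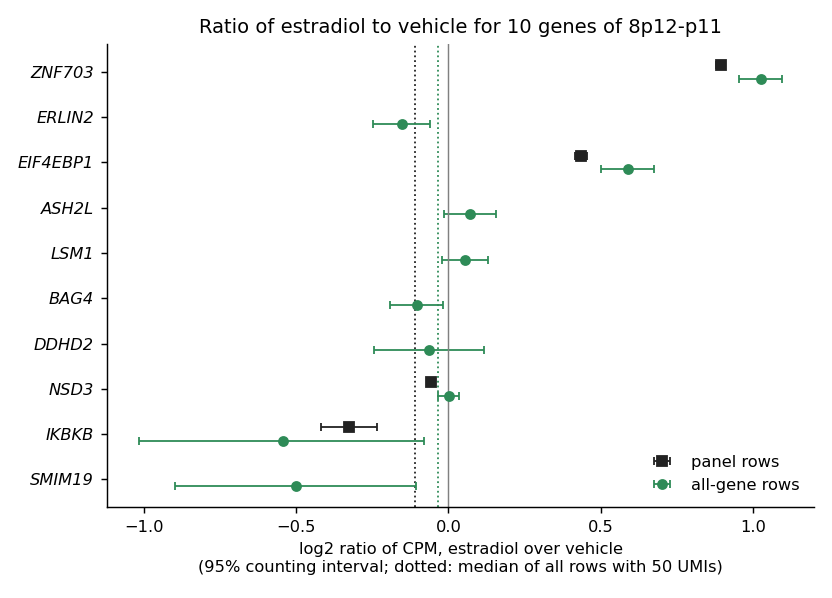
Log2 ratio of CPM, estradiol over vehicle (horizontal axis), for each of the 10 genes in chromosome order, with squares for panel rows, circles for all-gene rows, bars for 95% counting intervals and dotted lines for the median of all rows in each block. ZNF703 lies at 0.89 and 1.03 and EIF4EBP1 at 0.43 and 0.59, while the genes between and beside them lie close to 0. IKBKB and SMIM19 lie below 0, with wide intervals in the all-gene rows.

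ZNF703 (GRCh38.p14, chromosome 8, 37695782 to 37700019) had 9751 panel CPM with estradiol (9691 to 9812) and 5250 panel CPM with vehicle (5212 to 5288). The panel fold was 1.86 (1.84 to 1.88), a log2 ratio of 0.89 (0.88 to 0.91), the 11th highest of 940. In the all-gene rows it had 747 CPM with estradiol and 367 CPM with vehicle, a fold of 2.04 (1.94 to 2.14) and a log2 ratio of 1.03 (0.95 to 1.10). The blocks were read from 1 set of cells, so the second is no further replicate. Set against NSD3 of the same block in place of the total, a scale chosen after seeing the data, ZNF703 had 47.6 panel UMIs per 100 NSD3 UMIs with estradiol and 24.6 with vehicle. Its all-gene values were 34.7 and 17.0. The log2 ratio on that scale was 0.95 in the panel rows and 1.02 in the all-gene rows.

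The higher ZNF703 level was seen in each cell-cycle phase the authors called, with the widest gap in G2M. In G1 cells ZNF703 had 9081 panel CPM with estradiol and 5217 with vehicle, a log2 ratio of 0.80 (0.78 to 0.82). In S cells it had 8565 CPM with estradiol and 5415 with vehicle (0.66, 0.63 to 0.69), and in G2M cells 11090 and 5224 CPM (1.09, 1.07 to 1.11). The shares of panel rows at least 1.5-fold higher were 6.04% in G1, 1.77% in S and 3.05% in G2M. The all-gene rows placed the phases in the same order, at 0.97 in G1, 0.68 in S and 1.251 in G2M, where 6%, 4.72% and 3.84% of rows were at least 1.5-fold higher. In vehicle cells the 3 phase levels were close, and the ratio of G2M to G1 had a log2 value of 0.00 (-0.02 to 0.02). In estradiol cells G2M stood above G1 by 0.29 (0.27 to 0.31) and S below G1 by 0.08 (log2 ratio -0.08, -0.11 to -0.06). Whether the phases differ in their response was not tested, with 1 library per treatment.

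**Figure D2:**
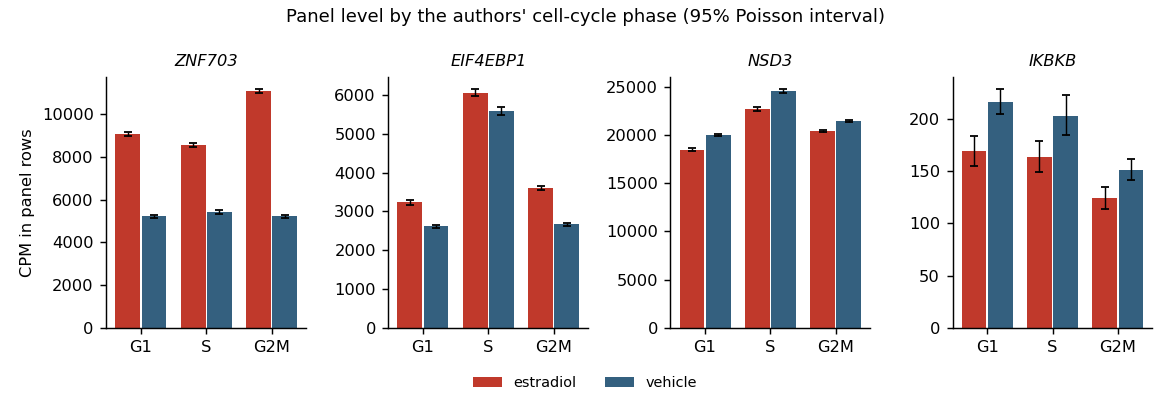
Panel CPM (vertical axes, each from 0) in G1, S and G2M cells for ZNF703, EIF4EBP1, NSD3 and IKBKB, with the estradiol library left of the vehicle library in each phase and bars for 95% Poisson intervals. ZNF703 is between 5217 and 5415 CPM in every vehicle phase and peaks at 11090 CPM in estradiol G2M cells, while EIF4EBP1 is highest in S cells of both libraries.

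The ZNF703 difference was seen over the whole distribution of cells. Each cell was thinned to 1000 panel UMIs so that depth was equal, which left out 12 estradiol cells and 78 vehicle cells. The median cell then had 9 ZNF703 UMIs with estradiol and 4 with vehicle, and the 10th to 90th percentiles ran over 4 to 16 and 1 to 9 UMIs. Without thinning the medians were 24 UMIs with estradiol and 11 with vehicle. Cells above the vehicle median of 4 UMIs made up 84.9% of estradiol cells (exact binomial interval 83.7 to 86.1) and 48.9% of vehicle cells (47.5 to 50.3), and 6.17% and 14.4% of cells sat at exactly 4. Unthinned, the shares above the vehicle median of 11 UMIs were 85.7% and 48.1%. The share of cells with no ZNF703 UMI after thinning was 0.358% with estradiol and 3.33% with vehicle. The variance of the thinned counts over their mean was 2.94 with estradiol and 2.17 with vehicle, beside 1.76 and 1.81 for NSD3, whose median was 20 and 21 UMIs. That measure can rise with the mean, which was 9.46 and 5.02 UMIs for ZNF703, so it does not show a larger relative spread with estradiol.

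**Figure D3:**
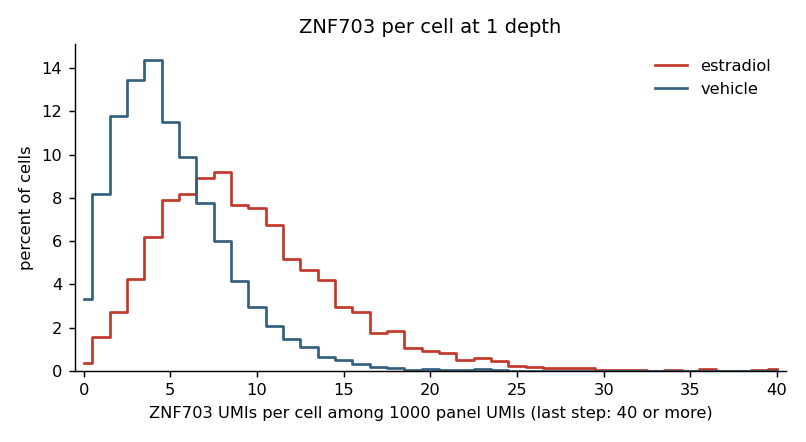
Percent of cells (vertical axis) by ZNF703 UMIs per cell after thinning to 1000 panel UMIs (horizontal axis, last step 40 or more), for estradiol and vehicle cells. The vehicle cells peak at 4 UMIs, and the estradiol cells form 1 broader hump with a median of 9.

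Across the authors' 8 clusters, which they built from these same cells and which are used here only to describe, ZNF703 was higher with estradiol in 8 of 8 in both blocks. The panel log2 ratio was 1.18 in cluster 4, 1.07 in cluster 0, 1.04 in cluster 7 and 0.91 in cluster 2. It was 0.60 in clusters 1 and 3 and 0.56 in cluster 5. Cluster 6 stood apart, at 4777 CPM with estradiol (4496 to 5071) and 4268 with vehicle (4177 to 4361), a log2 ratio of 0.16 (0.07 to 0.25). That cluster held 79 estradiol cells and 626 vehicle cells. Its all-gene log2 ratio was 0.72 (0.29 to 1.13) on 59 and 267 ZNF703 UMIs, so the blocks gave different sizes there and the low value rests on the panel rows.

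Ordered by panel level over the 16 combinations of treatment and cluster, the 7 highest ZNF703 levels were the estradiol cells of clusters 0, 4, 3, 7, 5, 2 and 1, between 10798 and 8072 CPM. Clusters 0 and 4 had overlapping counting intervals, and those of clusters 7, 5 and 2 overlapped each other. Next came the vehicle cells of clusters 3 (6736 CPM) and 5 (6342 CPM), the highest of the vehicle levels. The estradiol cells of cluster 6 took the 12th place, and their interval overlapped those of vehicle clusters 0, 4, 2 and 7. The vehicle cells of cluster 6 were lowest of all.

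**Figure D4:**
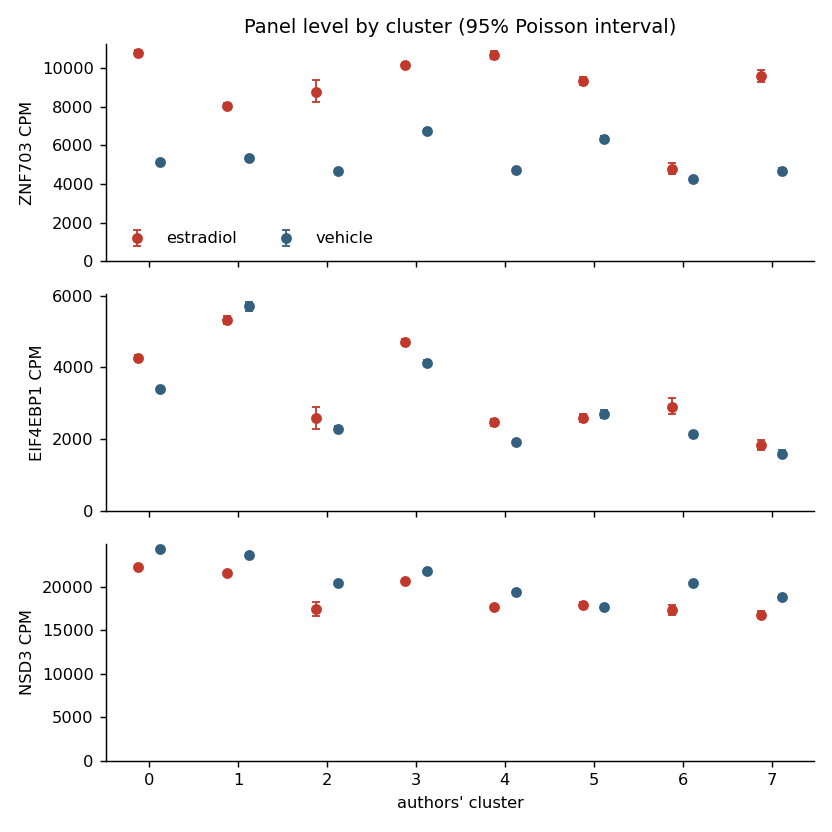
Panel CPM (vertical axes, from 0) of ZNF703, EIF4EBP1 and NSD3 in each of the authors' 8 clusters, with estradiol cells left of vehicle cells and bars for 95% Poisson intervals. ZNF703 is between 8072 and 10798 CPM in the estradiol cells of 7 clusters and 4777 CPM in cluster 6, and EIF4EBP1 follows the cluster more than the treatment.

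The genes whose panel pattern was most like that of ZNF703 were WNT4, a Wnt ligand gene (Pearson r of log2(CPM + 1) over the 16 sums 0.92), the histone deacetylase gene HDAC11 (0.90), IL6ST, which encodes the shared receptor subunit gp130 (0.89), PAM16 (0.88) and the cathepsin gene CTSB (0.85), of 759 genes compared. Most unlike it were ID3 (-0.92), SNX9 (-0.90) and CLIP1 (-0.90). In the all-gene rows IGFBP4 (0.95), CA12 (0.93), FKBP4 (0.91), SSR3 (0.89) and MINOS1 (0.87) led 2320 genes, and CAST (-0.93), VMP1 (-0.91) and SMIM14 (-0.91) closed the list. The 16 sums share 2 libraries, so the treatment difference enters every r. Over the 8 clusters within a library, the r of WNT4 was 0.81 with estradiol and 0.93 with vehicle, and that of HDAC11 was 0.85 and 0.46. None of the neighbours on 8p was near the top: EIF4EBP1 was at 0.29, NSD3 at -0.21 and IKBKB at -0.42 in the panel rows.

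EIF4EBP1 (38030534 to 38060365) was higher with estradiol, but S cells differed from G1 cells by more than the treatments did. It had 4169 panel CPM with estradiol and 3084 with vehicle, a fold of 1.35 (1.33 to 1.37) and a log2 ratio of 0.43 (0.42 to 0.45), and 418.5 and 278 all-gene CPM, a fold of 1.503 (1.42 to 1.60) and a log2 ratio of 0.59. With equal weight to the 3 phases, the panel log2 ratio was 0.25 and the all-gene one 0.39, and with equal weight to the clusters they were 0.16 and 0.31. The all-gene value is at the 1.5-fold limit, and it drops below it under both weightings, with the 10 most abundant genes left out of the total and with cells thinned to 500 UMIs.

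Cells called S had more EIF4EBP1 than G1 cells in both libraries. With estradiol S cells had 6061 panel CPM and G1 cells 3231 (log2 ratio of S to G1 0.91, 0.87 to 0.94), and with vehicle 5580 and 2611 (1.10, 1.06 to 1.13). The all-gene rows gave 0.91 and 1.15. G2M cells were closer to G1 cells, at panel log2 ratios of 0.15 (0.12 to 0.19) with estradiol and 0.03 (-0.001 to 0.06) with vehicle. Of panel rows, 12.2% with estradiol and 14.4% with vehicle were at least 1.5-fold higher in S than in G1, and of all-gene rows 8.88% and 9.88%. The phases were called from genes of these same cells, so these ratios are descriptions. The ratio of estradiol to vehicle was 0.31 in G1, 0.12 in S and 0.43 in G2M, so S cells had the smallest gap in the panel rows. By cluster the panel ratio ran from -0.10 (-0.14 to -0.06) in cluster 1, where EIF4EBP1 was highest in both libraries (5322 CPM with estradiol and 5710 with vehicle), to 0.45 in cluster 6. The median of all panel rows in cluster 1 was -0.12. Cluster 7 had the lowest levels, 1839 CPM with estradiol and 1597 with vehicle.

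The chromatin genes NSD3 and ASH2L did not share the ZNF703 difference. NSD3 (38269704 to 38382271) had 20472 panel CPM with estradiol and 21322 with vehicle, a log2 ratio of -0.06 (-0.07 to -0.05), which was 0.06 when scaled by median-of-ratios size factors and 0.00 without the 10 most abundant genes, and -0.10 with equal phase weights and -0.13 with equal cluster weights. By cluster its panel ratio ran from -0.23 to 0.02, with the counting interval below a ratio of 1 in 7 of 8 clusters. The median of all panel rows was itself below 0 in every cluster, from -0.13 in cluster 2 to -0.02 in cluster 5. In cluster 3 NSD3 was at -0.07, above the panel median of -0.11 there. Its all-gene level was 2155 CPM with estradiol and 2154 with vehicle, a log2 ratio of 0.00 (-0.03 to 0.03), with settings between -0.08 and 0.05. NSD3 was higher in S than in G1 cells by a panel log2 ratio of 0.30 in both libraries. ASH2L (38105493 to 38140080) had 351 all-gene CPM with estradiol and 335 with vehicle (0.07, -0.02 to 0.16, and -0.05 with equal cluster weights). It too was higher in S than in G1, by 0.31 with estradiol and 0.40 with vehicle, and in G2M than in G1, by 0.47 and 0.24.

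LSM1, BAG4, ERLIN2 and DDHD2, which lie between or beside the genes above, had log2 ratios near 0. LSM1 (38163321 to 38176730) had 455 all-gene CPM with estradiol and 438 with vehicle (0.05, -0.02 to 0.13). BAG4 (38176855 to 38213301) had 324 and 348 CPM (-0.10, -0.19 to -0.02). ERLIN2 (37736634 to 37758422), whose start is 0.041 Mb from that of ZNF703, had 279 and 310 CPM (-0.15, -0.25 to -0.06). DDHD2 (38231585 to 38273647) had 78.1 and 81.7 CPM (-0.06, -0.24 to 0.12) and turned to 0.26 in thinned cells. DDHD2 and NSD3 overlap by 3944 bases, and DDHD2 also overlaps its listed neighbour PLPP5. No source used here gives the use of strand in counting, so reads in the overlaps may be split between these genes. ERLIN2 was higher in G2M than in G1 cells in both libraries, by 0.18 (0.01 to 0.34) with estradiol and 0.14 (0.01 to 0.27) with vehicle, while the intervals of LSM1, BAG4 and DDHD2 held a ratio of 1 in each phase contrast.

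IKBKB and SMIM19 lie farther towards the centromere, with starts 4.58 and 4.85 Mb from that of ZNF703. Both were lower with estradiol, on low counts in the all-gene rows. IKBKB (42271302 to 42332460) had 149.5 panel CPM with estradiol and 187 with vehicle, a log2 ratio of -0.33 (-0.42 to -0.23). The all-gene rows had 63 and 107 IKBKB UMIs (-0.54, -1.02 to -0.08). Of these, 15 and 62 were in G1 cells (-1.35, -2.27 to -0.52), where 7.53% of all-gene rows were at least 1.5-fold lower. In S cells there were 23 and 12 (0.29, -0.78 to 1.43) and in G2M cells 25 and 33 (-0.16, -0.97 to 0.63). In panel rows its ratio was below 0 in each phase, -0.36 in G1, -0.31 in S and -0.29 in G2M, and in 7 of 8 clusters, with 0.20 (-0.27 to 0.66) in cluster 7. The median of all panel rows was also below 0, at -0.10 in G1, -0.09 in S and -0.11 in G2M, and in every cluster. Over all cells the panel ratio of IKBKB ranked 696 from the highest of 940. G2M cells had less IKBKB than G1 cells in both libraries, by panel log2 ratios of -0.45 with estradiol and -0.52 with vehicle. SMIM19 (42541148 to 42555195) had 88 UMIs with estradiol and 145 with vehicle, 14.8 and 21.0 CPM (-0.50, -0.90 to -0.11). In the all-gene rows SMIM19 passed 1.5-fold lower with thinned cells (-0.95), as the mean of per-cell shares (-0.65) and without the 5% of cells with most UMIs (-0.60). IKBKB passed it with equal cluster weights (-0.66) and without those cells (-0.61), and was at -0.28 with thinned cells.

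By position, the higher ratios did not extend over the listed genes of the stretch. The list of 8p12 and 8p11 genes was written from general knowledge and is not complete. From ZNF703 to NSD3, a span of 0.686 Mb, 16 genes were listed and 13 had at least 50 UMIs. The 11 besides ZNF703 and EIF4EBP1 had all-gene log2 ratios between -0.37 (PLPP5) and 0.17 (ADGRA2). The all-gene UMIs of the 8 described genes other than ZNF703 and EIF4EBP1, summed, had a log2 ratio of -0.01 (-0.04 to 0.01). NSD3 gave 12793 of the 21771 estradiol UMIs and 14899 of the 25613 vehicle UMIs, so that sum mostly follows NSD3. The summed UMIs of the other 59 listed genes of 8p12 and 8p11 had -0.13 (-0.16 to -0.11). RAB11FIP1 with 7726 and KAT6A with 6054 gave most of the 25781 estradiol UMIs in that sum. Of these 59, 36 had at least 50 UMIs, and UNC5D, a netrin receptor gene 2.46 Mb towards the telomere, was highest at 26.1 CPM with estradiol and 12.3 with vehicle (1.09, 0.70 to 1.49). GPAT4 (0.46, -0.01 to 0.93), GINS4 (0.42, 0.01 to 0.84) and MAK16 (0.36, -0.10 to 0.82) followed. TCIM was lowest at 2.02 and 6.94 CPM (-1.78, -2.83 to -0.85, on 12 and 48 UMIs). Then came HGSNAT (-0.52, -1.31 to 0.25), RNF170 (-0.42, -1.06 to 0.21) and PLEKHA2 (-0.40, -0.61 to -0.20).

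**Figure D5:**
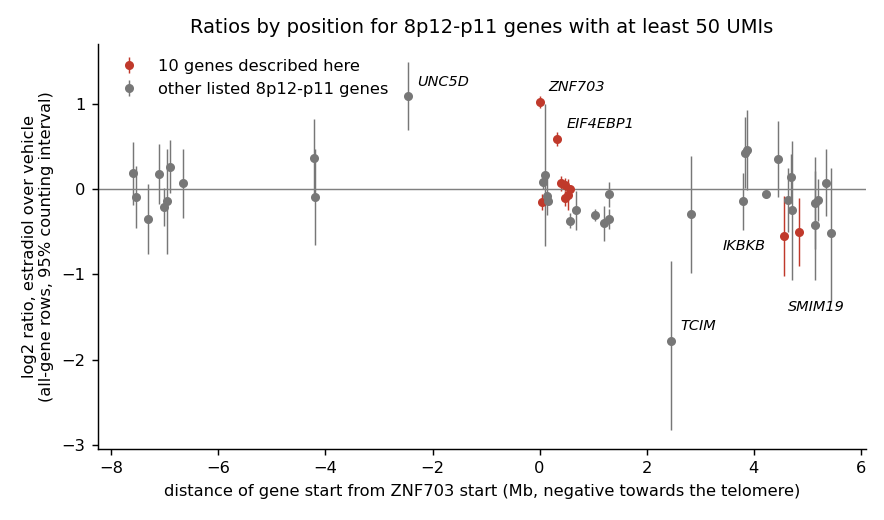
All-gene log2 ratio of estradiol over vehicle (vertical axis, bars for 95% counting intervals) against the distance of each gene's start from that of ZNF703 in Mb (horizontal axis), with the 10 described genes and the other listed 8p12 and 8p11 genes in different colours. ZNF703 at 1.03 and EIF4EBP1 at 0.59 stand above the other listed genes from ZNF703 to NSD3, which lie between -0.37 and 0.17. Among all the genes shown, a list that is not complete, UNC5D at 1.09 is highest and TCIM at -1.78 lowest.

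From cell to cell, the levels of the genes were weakly related. In cells thinned to 1000 panel UMIs, Pearson r between EIF4EBP1 and NSD3 was 0.21 over 3355 estradiol cells and 0.15 over 4862 vehicle cells. For ZNF703 and EIF4EBP1 it was -0.04 and 0.12, and for ZNF703 and NSD3 -0.03 and -0.04. The 45 pairs of the 10 genes in all-gene rows lay between -0.04 and 0.05. Cells of 1 library share preparation and the fixed UMI total, and sparse counts lower r, so a low value is no finding.

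Partners of the 10 genes were listed by function. None of the listed genes passed 1.5-fold in either direction in the all-gene rows for cap-dependent translation (16 measured), histone methylation (16), mRNA decay with the LSM ring (14), the reticulum and lipid list (10), BAG and HSP70 genes (8), the NF-kB pathway (15) or the TLE corepressor list with relatives of ZNF703 (10), beside the 3.82% higher and 6.67% lower of all rows. The translation factor EIF4G1 had a log2 ratio of 0.47, RPS6KB2 0.33 and EIF4B -0.29. In the panel rows RPS6KB2 had 0.03 (0.01 to 0.05, on 32775 and 43635 UMIs). WDR5, a partner of ASH2L, had 0.50, SETD1B -0.45 and NSD2, a relative of NSD3, 0.37. In the panel rows NSD2 had 0.16 (0.13 to 0.19). LSM7 had 0.36, the exonuclease gene XRN1 -0.34 and DCP1B -0.31, while the IP3 receptor genes ITPR2 and ITPR1 had -0.46 and -0.32. The HSP70 family gene HSPA8 had 0.44, HSPA4 0.33 and BAG3 0.29. TRAF6 had -0.48, TAB2 -0.43 and RELA -0.33 (63 and 92 UMIs), while RELA in the panel rows had 0.095 (0.003 to 0.19, on 1698 and 2162 UMIs). In the panel rows 5 of 9 NF-kB genes were above a ratio of 1, where 345 of 940 rows were. In the all-gene rows 3 of 15 NF-kB genes were, where 5001 of 10977 rows were. TNFAIP3, an NF-kB target and inhibitor, was the 1 of 9 at least 1.5-fold lower, where 11.8% of all panel rows were, at 15.8 CPM with estradiol and 30.5 with vehicle (-0.95, -1.22 to -0.68). TLE4 had -0.44, PHB2 -0.28 and NCOR1 -0.25, and NCOR1 had -0.32 in the panel rows.

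For scale, 12 of 14 measured genes of a list of estrogen-induced genes were at least 1.5-fold higher in all-gene rows, led by PDZK1 (3.06), RAPGEFL1 (1.92) and SLC7A5 (1.71). That list was written with results of these data known. Over the whole all-gene block, 3.82% of rows were at least 1.5-fold higher and 6.67% at least 1.5-fold lower. On chromosome 11, bands q13 to q14, the other region of amplification described in this line, 0 of 18 measured genes passed 1.5-fold in either direction. Against those shares, a count of 0 among 18 genes says little about the region. ALG8 was at 0.54, SHANK2 at -0.53 and ANO1 at 0.42 (-0.37 to 1.22, on 31 and 27 UMIs). CCND1, the cyclin D1 gene, had 17098 CPM with estradiol and 12794 with vehicle (0.42).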

How the data were processed

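MM134 cells were profiled with 1 mRNA library for estradiol and 1 for vehicle; the repair libraries were not used here. Per the file headers the matrix holds natural log values, 1 column per cell, and the authors deposited each cell's treatment, phase, cluster, mitochondrial percent and UMI count per block. Cell Ranger 3.0.2 and the hg38 build are among the names given, with no role, per the submitters' processing notes. No source used here says how the all-gene rows were sequenced.

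UMI counts were recovered from the log values, which the authors had scaled to 10000 per cell and block, with 1 added before the log: 100% came out whole within 1e-06, and they summed to the deposited count in 100% of cells. Counts were summed per library, phase and cluster with no cell left out, and no doublet caller was run. Calculations used Python 3.11.15, numpy 2.4.6, scipy 1.17.1 and pandas 2.3.3, checked on simulated counts. A ratio of at least 1.5-fold with at least 50 UMIs over both libraries was called. The members, lists and rules were chosen with earlier results of these data known.

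All 10 genes were named in each block with a row. Others named were the 4 highest and 4 lowest of the other listed 8p12 and 8p11 genes, up to 3 per partner list by size of ratio, and the 5 most and 3 least like ZNF703 (at least 1000 UMIs, sums of at least 50 cells). A gene that these rules would name may be left out and is then not reported here. ANO1, CCND1, PLPP5 and ADGRA2 were chosen after their values were seen. Positions came from RefSeq, GRCh38.p14. Other scalings, weightings of phases and clusters, thinning and filters were tried.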

Additional observations from a re-analysis of the deposited data

Results flagged for a closer look

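Over 3 phases and 8 clusters, 14 pairs of gene and block were searched for opposite directions with counting intervals on both sides of a ratio of 1, and 2 were found. EIF4EBP1 in the panel rows was higher with estradiol in clusters 0, 3, 4, 6 and 7, by up to 0.45 on the log2 scale in cluster 6. In cluster 1 it was at -0.10 (-0.14 to -0.06), below a ratio of 1. The median of all panel rows in cluster 1 was -0.12, so EIF4EBP1 was there near the typical panel gene. In the all-gene rows the EIF4EBP1 ratio of cluster 1 was -0.08 (-0.26 to 0.11), so its interval held a ratio of 1. NSD3 in the all-gene rows was higher in cluster 5, by 0.16 (0.02 to 0.30), and lower in clusters 0 (-0.15), 1 (-0.12) and 4 (-0.12). In the panel rows NSD3 of cluster 5 was at 0.02 (-0.01 to 0.06). With 1 library per treatment, the difference between clusters was not tested in either case.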

How the results depend on the processing

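ZNF703 stayed above a panel log2 ratio of 0.7 in every setting tried. Beside 0.89 it was 1.01 with a median-of-ratios size factor, 0.96 without the 10 most abundant genes in the total, 0.86 with equal phase weights, 0.79 with equal cluster weights, 0.92 without the 5% of cells with most UMIs, 0.91 with thinned cells, 0.92 as the mean of per-cell shares and 0.95 with NSD3 UMIs in place of the total, a scale chosen after seeing the data. The panel median over the genes (0.19) was 0.30, 0.25, 0.074, 0.014, 0.21 (thinned) and 0.21 (per-cell shares) in the same order, leaving out the setting without top cells, and -0.059 without ZNF703. The panel count of 1 was 2 at a lower fold limit, which EIF4EBP1 also passed, and 0 without ZNF703. The all-gene count of 2 was 1 without the 10 most abundant genes, with equal phase weights, with equal cluster weights, with thinned cells and without ZNF703; in the first 4 the gene lost was EIF4EBP1. The cause was not tested. Beside ZNF703 in panel rows, 91 values for single genes were recomputed: 70 moved by less than their counting interval, 21 moved by more, and no gene past 1.5-fold turned its sign. SMIM19 passed 1.5-fold lower in 3 settings (-0.95, -0.65 and -0.60) and all-gene IKBKB in 2 (-0.66 and -0.61). The size factor moved the median of all panel rows from -0.11 to 0.01. No paired analysis was possible because each treatment has 1 library, and for the same reason no replicate could be left out. Depth limits IKBKB and SMIM19 in all-gene rows and the estradiol cells of clusters 2 and 6.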

Other observations

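The genes most like EIF4EBP1 and NSD3 over the 16 combinations of treatment and cluster were looked up after the data had been seen. EIF4EBP1 in the panel rows was closest to E2F1 (Pearson r 0.97), the replication licensing genes CDC6 (0.96) and MCM4 (0.95), HELLS (0.94) and CDK4 (0.94). Over the 8 clusters within a library, the r of EIF4EBP1 with E2F1 was 0.92 with estradiol and 1.00 with vehicle, and with CDC6 it was 0.95 and 0.97. In the all-gene rows CHAF1A (0.96), CDC6 (0.93) and MCM6 (0.92) led. Among the genes most like NSD3 in the all-gene rows were DEK (0.87), PCLAF (0.87), CLSPN (0.86) and the sliding clamp gene PCNA (0.86). Between the genes of 8p, the highest r with either gene was 0.66 in the panel rows (EIF4EBP1 and NSD3). In the all-gene rows it was 0.77 (NSD3 and ASH2L). Other pairs in the all-gene rows were below 0. EIF4EBP1 had an r of -0.61 with ERLIN2 and -0.21 with BAG4, and NSD3 had -0.10 with BAG4 and -0.09 with ERLIN2. The clusters were built from the same cells, so these values are descriptions.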
